A study of Rattus norvegicus with 8 samples.

Results

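The miRNAs of the Clcn5 cluster are small RNAs cut from hairpins that lie within the gene Clcn5 on the X chromosome. They were taken by name, as every listed miRNA called miR-188, miR-362, miR-500, miR-501, miR-502, miR-532 or miR-660, with both arms where listed. The rule found 10 of the 620 listed miRNAs, from 5 hairpins, namely miR-532-5p, miR-532-3p, miR-500, miR-500*, miR-362, miR-362*, miR-188, miR-188*, miR-501 and miR-501*. No row was listed for miR-502 or miR-660. Small RNA was sequenced from the kidneys of 4 rats treated with aristolochic acid (AA), a plant toxin that damages the kidney and causes tumours there, and of 4 control rats, with 1 library per rat. All 8 were male Big Blue transgenic rats of the Fisher 344 strain, which carry a mutation reporter transgene, and were 18 weeks old. From an age of 6 weeks, the AA-treated rats received the sodium salt of AA by gavage at 10.0 mg/kg in 4 ml/kg, 5 times a week, and the control rats received 0.9% sodium chloride as often. The kidneys were collected 1 day after dosing had ended. The treatment protocol in the labels runs over 12 weeks. In both groups, the descriptions of single samples instead name 12 weeks for rat 1 and 13 for rat 2. They name 14 weeks for rat 3 and 15 for rat 4. All 8 rats are listed as 6 weeks old at the start and 18 weeks old at collection, which matches the protocol of 12 weeks. Durations of 13 to 15 weeks do not match these ages.

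Clcn5 encodes ClC-5, an exchanger of chloride and protons in the endosomes of the proximal tubule, where it is needed for the uptake of filtered protein. Loss of its function in humans causes Dent disease, with loss of protein into the urine. A miRNA hairpin inside a gene can be cut from the primary transcript of that gene, or have a start of its own. Either arm of the hairpin, called 5p and 3p by its end, can become the mature miRNA, which recognises its targets mainly through its seed, bases 2 to 8. The mRNA of Clcn5 was not analysed here, so that the cluster is described from its miRNAs alone.

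In the RefSeq tables of the GRCr8 assembly, all 5 hairpins lie on the plus strand inside the span of Clcn5, which is read in the same direction. Mir532 is at chrX:17919185-17919263 and Mir188 at chrX:17919585-17919664, with 321 bases between them. Mir362 follows 6820 bases later at chrX:17926485-17926549, Mir501 at chrX:17927189-17927272 and Mir500 at chrX:17930647-17930726. The cluster therefore spans 11542 bases. These are the positions of the RefSeq entries, since the deposited table names no genome build. RefSeq lists 2 starts for Clcn5, of which 1 lies before all 5 hairpins and 1 after them. A further miRNA gene, Mir3560, lies on the opposite strand over Mir501 and had no row in the table.

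The mature sequences held by RefSeq for these hairpins are shown because they hold the seeds by which members may be compared. They are 9 of the 10 arms, without miR-362-5p. They are written 5′ to 3′ with the seed in capitals.
miR-532-5p: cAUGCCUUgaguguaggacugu
miR-532-3p: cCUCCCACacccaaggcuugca
miR-188-5p: cAUCCCUUgcaugguggaggg
miR-188-3p: cUCCCACAugcaggguuugc
miR-362-3p: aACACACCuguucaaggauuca
miR-501-5p: aAUCCUUUgucccuggguga
miR-501-3p: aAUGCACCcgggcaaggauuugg
miR-500-5p: aAUCCUUGcuaucugggugcuuag
miR-500-3p: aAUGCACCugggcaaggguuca

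Among these 9 sequences, miR-500-3p and miR-501-3p have the same seed, and they are identical over their first 8 bases. The seeds are equal in 6 of their 7 bases for miR-500-5p and miR-501-5p, for miR-532-5p and miR-188-5p, and for miR-188-5p and miR-501-5p. miR-188-3p and miR-532-3p share a stretch of 8 bases that starts at base 1 of the former and at base 2 of the latter, so that the seed of miR-188-3p is also present in miR-532-3p, shifted by 1 base. No other pair among the 9 has the same seed or 6 equal bases at the same positions of it. Only miR-532-5p and miR-532-3p are listed under the names used by RefSeq. For the other hairpins, the older names in the table mark the minor arm with an asterisk and do not say which arm is 5p, so that miR-500, miR-362, miR-188 and miR-501 and their asterisked partners could not be assigned to a sequence. How reads that match more than 1 miRNA were counted is not given in the sources used here.

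Each rat had between 13412373 and 15616670 reads on miRNAs. They were divided by size factors, computed as the median of the ratios to a mean library, which ranged from 0.818 to 1.28, and "normalized counts" refers to these values. The mature miRNAs differ little in length, from 20 to 24 bases, and no correction for length was made. How well each sequence was captured in the libraries was not measured. Levels of different miRNAs, and of the 2 arms of a hairpin, are therefore compared as counts only. Differences between the groups were tested in 1 fit over all 620 miRNAs with the quasi-likelihood test of edgeR and Benjamini-Hochberg adjustment. A miRNA was called where the adjusted p was under 0.05 and the group means differed by more than 1.5 times. The labels do not say that rats were treated or sequenced in separate batches.

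The cluster took a small part of the miRNA counts, and nearly all of its counts were those of miR-532-5p. This miRNA ranked 85 of the 620 by mean normalized count and made up 85.9% of the counts of the cluster over all rats. The next, miR-500 and miR-362, took 4.39% and 4.23% of it. miR-532-3p, miR-362* and miR-188 followed with 2.12%, 1.6996% and 1.13%, and miR-501 with 0.355%. The remaining 3 arms, miR-500*, miR-501* and miR-188*, together lay below miR-501, at 0.143%, 0.0645% and 0.0138%. miR-532-5p was above miR-500 in all 8 rats, at 20.1 times its mean level. miR-500 and miR-362 did not differ in level beyond the spread between rats, since miR-500 was the higher in 5 of 8 rats and the ratio of their means was 1.01. The same held for miR-532-3p and miR-362*, of which the former was higher in 5 of 8 rats. In all 8 rats, miR-362 exceeded miR-532-3p, miR-362* exceeded miR-188, miR-188 exceeded miR-501 and miR-501 exceeded miR-500*. miR-500* exceeded miR-501* in 7 of 8 rats.

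AA treatment left no difference in the miRNAs of the cluster that the test could detect. None of the 10 was called by edgeR, none had an unadjusted p under 0.05, and in all 10 the 2 groups overlapped. Over all 620 miRNAs, 9.03% were called, 23.9% had an unadjusted p under 0.05 and 16.3% had groups that did not overlap. DESeq2 and limma-voom also called 0 of the 10, and both gave 0 with an unadjusted p under 0.05. The plot of normalized counts by rat shows the AA-treated and control rats side by side.

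**Figure D1:**
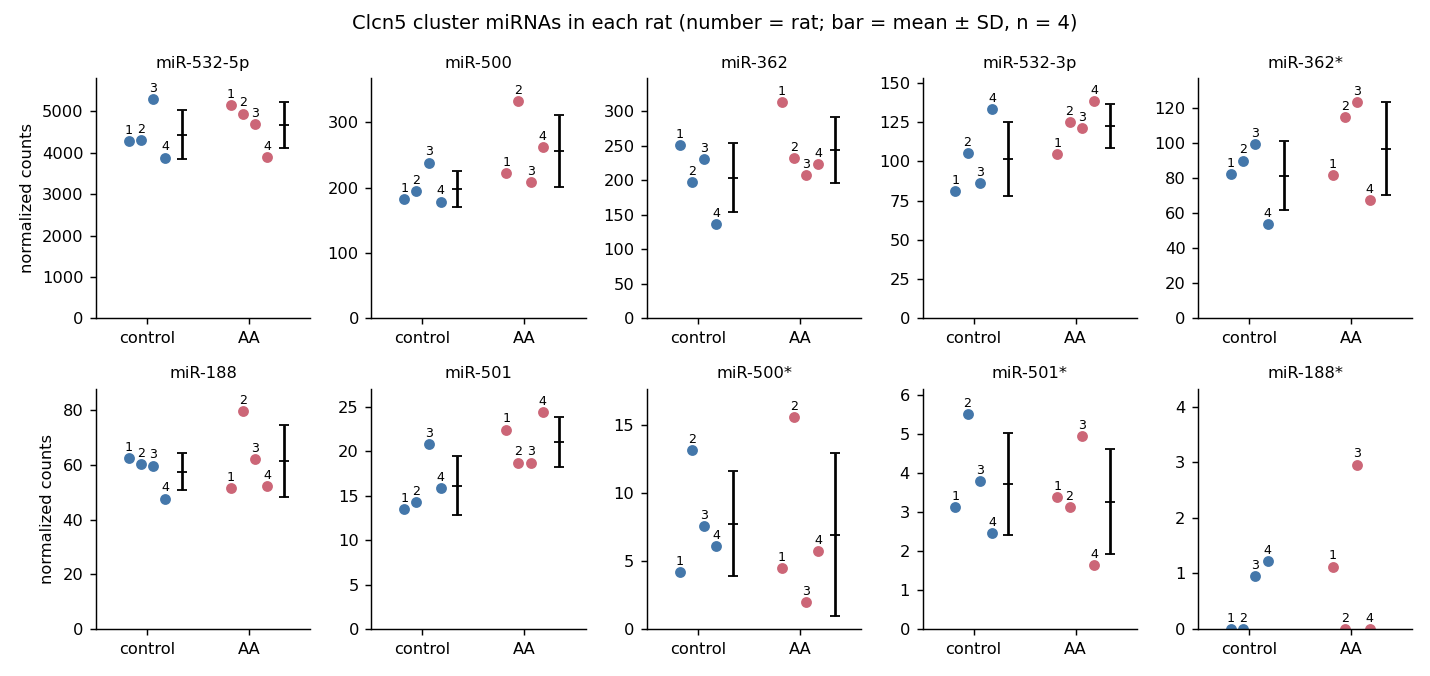
Normalized counts (y axis, linear from 0) of the 10 cluster miRNAs in the 4 control (blue) and 4 AA-treated (red) rats, numbered by rat, with the mean ± SD of each group in black except for miR-188*. The groups overlap in every panel, and the most abundant miRNA, miR-532-5p, lies between 3885 and 5297 in control rats and between 3892 and 5147 in AA-treated rats.

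miR-532-5p had 4286, 4301, 5297 and 3885 normalized counts in control rats 1 to 4 and 5147, 4950, 4700 and 3892 in AA-treated rats 1 to 4. The lowest rat of both groups was rat 4, and the highest rat of all was control rat 3. The means were 4442 ± 601 (SD, n = 4) and 4672 ± 552 (SD, n = 4), a log2 fold change of 0.07 (SE 0.18, edgeR-adjusted p = 0.820). Its 95% interval reached from 0.799-fold to 1.39-fold, so that with these size factors a change of 1.5-fold in either direction lay outside it. miR-532-5p was the only cluster miRNA for which this held in both directions. Scaled by total counts instead, its log2 fold change was 0.32 (edgeR-adjusted p = 0.364), for which no interval is given here.

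miR-532-3p, the other arm of the same hairpin, had 81.1, 105, 86.3 and 133 normalized counts in control rats 1 to 4 and 104, 125, 121 and 138 in AA-treated rats 1 to 4. Here rat 4 was the highest of both groups, in contrast to miR-532-5p. The log2 fold change was 0.27 (SE 0.25, edgeR-adjusted p = 0.527). Without both rats numbered 4, the adjusted p was 0.347.

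miR-500 had 182, 194.4, 238 and 178 normalized counts in control rats 1 to 4 and 222, 332, 208 and 262 in AA-treated rats 1 to 4. AA-treated rats 2 and 4 lay above all control rats, and AA-treated rats 1 and 3 lay below control rat 3. The means were 198 ± 27.4 and 256 ± 55.4 (SD, n = 4 each). This gave a log2 fold change of 0.37 (SE 0.24, edgeR-adjusted p = 0.369). Its interval reached from 0.906-fold to 1.84-fold. This was the smallest adjusted p among the 10 miRNAs.

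miR-500*, the minor arm, had 4, 12, 8 and 5 counts in control rats 1 to 4 and 4, 20, 2 and 7 in AA-treated rats 1 to 4. The rats numbered 2 were the highest of both groups, and the lowest and highest values of all were those of AA-treated rats 3 and 2. The log2 fold change of -0.11 (SE 0.59, edgeR-adjusted p = 0.912) is not informative at this depth, since its interval reached from 0.385-fold to 2.22-fold.

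miR-362 had 251, 198, 230 and 137 normalized counts in control rats 1 to 4 and 313, 233, 207 and 223.1 in AA-treated rats 1 to 4. Control rat 4 was the lowest and AA-treated rat 1 the highest, and the other 6 rats were mixed between the groups. The log2 fold change was 0.26 (SE 0.26, edgeR-adjusted p = 0.527), with an interval from 0.816-fold to 1.75-fold. miR-362* had 82.1, 90.1, 99.5 and 53.8 normalized counts in control rats 1 to 4 and 81.9, 115, 123 and 67.6 in AA-treated rats 1 to 4. Rat 4 was the lowest of both groups, and AA-treated rats 2 and 3 lay above all control rats. The log2 fold change was 0.25 (SE 0.29, edgeR-adjusted p = 0.611).

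miR-188, from the hairpin next to Mir532, had 62.4, 60.4, 59.7 and 47.7 normalized counts in control rats 1 to 4 and 51.6, 79.6, 62.1 and 52.1 in AA-treated rats 1 to 4. Only AA-treated rat 2 lay above the control rats. The log2 fold change was 0.09 (SE 0.27, edgeR-adjusted p = 0.848), and it turned to -0.058 without AA-treated rat 2. miR-188* had 6 counts in all, with at most 3 in any rat, too few for a fold change.

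miR-501 had 13.5, 14.3, 20.9 and 15.9 normalized counts in control rats 1 to 4 and 22.4, 18.7, 18.7 and 24.4 in AA-treated rats 1 to 4. AA-treated rats 1 and 4 exceeded every control rat, and control rat 3 exceeded AA-treated rats 2 and 3. The log2 fold change of 0.38 (SE 0.33, edgeR-adjusted p = 0.496) had an interval from 0.800-fold to 2.12-fold. In the exact permutation test (two-sided, n = 4 per group), p was 0.0857 for miR-501 and 0.114 for miR-500, where 0.0286 is the smallest p that 4 rats against 4 allow. miR-501* had at most 5 counts in any rat, with 28 in all. Its log2 fold change was -0.21 (SE 0.55, edgeR-adjusted p = 0.826).

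**Figure D2:**
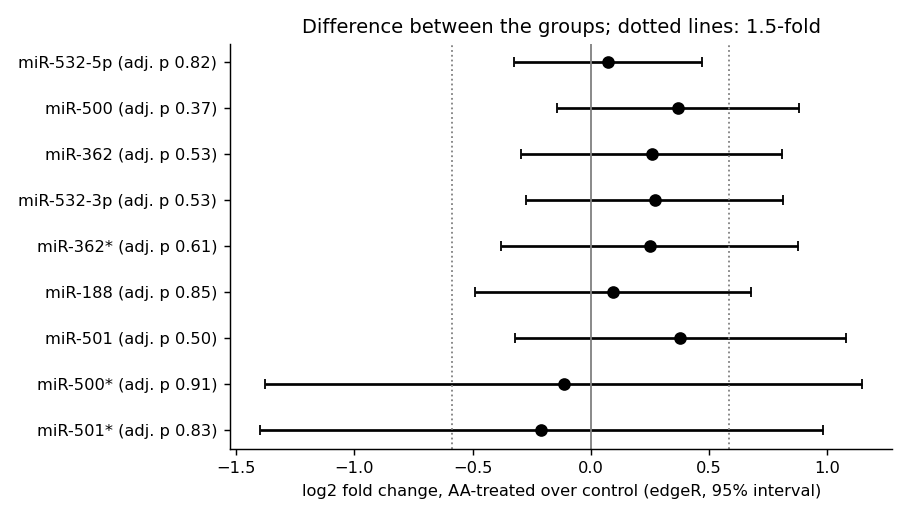
Log2 fold change of AA-treated over control rats (x axis) for 9 cluster miRNAs, scaled by median-of-ratios size factors. Points have 95% intervals from edgeR, and adjusted p is beside the names. All intervals include 0, and only that of miR-532-5p lies between the dotted lines at a 1.5-fold change, whereas those of miR-500* and miR-501*, with under 10 counts per rat on average, are the widest.

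The 7 miRNAs with a mean of at least 10 normalized counts all had a positive log2 fold change, with a median of 0.26. Among the 370 listed miRNAs at or above this level, 51.4% had a positive log2 fold change and the median was 0.02. For these 7, each interval included no change, and the lower bounds lay between 0.712-fold and 0.906-fold, so that a 1.5-fold decrease lay outside all 7 intervals. With the median-of-ratios size factors, a 1.5-fold increase lay inside 6 of the 7. The 7 share 1 locus and 1 set of libraries and are not independent of each other. Scaled by total counts instead, their median was 0.51 and that of the 370 was 0.28, and none of the 10 was called.

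The summed level of the cluster in control rats 1 to 4 was 4964, 4982, 6044 and 4461 normalized counts, and in AA-treated rats 1 to 4 it was 5952, 5871, 5450 and 4667. Control rat 3 had the highest sum and control rat 4 the lowest. The means were 5113 ± 666 and 5485 ± 588 (SD, n = 4 each). The mean difference on the log2 scale was 0.10, smaller than the SD of either group (two-sided exact permutation test, p = 0.429). As a percent of all miRNA counts, the cluster took 0.0266% to 0.0411% in control rats and 0.0367% to 0.0495% after AA (exact permutation test on the log2 scale, two-sided, p = 0.114, n = 4 per group). miR-532-5p weighs most in these sums. The mean log2 level of the 7 miRNAs, which weights them equally, was higher by 0.24 in the AA-treated rats (two-sided exact permutation test, p = 0.0571, n = 4 per group), which is a value over members chosen with earlier results known and did not pass 0.05.

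By hairpin, the sum of both arms of miR-532 was 4544 ± 586 in control and 4795 ± 539 in AA-treated rats, and that of miR-362 was 285 ± 66.3 and 341 ± 43.2 (SD, n = 4 each). The corresponding values were 206 ± 28.4 and 263 ± 61.2 for miR-500, 58.1 ± 6.20 and 62.4 ± 12.9 for miR-188, and 19.8 ± 3.45 and 24.3 ± 1.98 for miR-501 (SD, n = 4 each). With both arms added, the miR-362 hairpin was thus above the miR-500 hairpin on average in both groups. The position of a hairpin along Clcn5 did not order the levels, since miR-532 and miR-188 are neighbours and their hairpins were the first and the fourth in level.

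The share of each miRNA within the cluster does not depend on the size factors. miR-532-5p took 86.3% to 87.6% of the cluster's counts in control rats and 83.4% to 86.5% after AA. Its log2 share differed by -0.03 between the groups (two-sided exact permutation test, p = 0.114, adjusted p = 0.633 over the 7 miRNAs tested). Without AA-treated rat 1, whose share was the highest of its group, the difference was -0.04, with an unadjusted exact permutation p of 0.0286. The smallest adjusted p among the 7 was 0.633, so that no share was shown to differ.

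Within the groups, some shares differed between rats by more than the binomial error of the read counts. miR-500 took 3.66%, 3.90%, 3.94% and 4.00% of the cluster in control rats 1 to 4, and 3.73%, 5.65%, 3.82% and 5.62% in AA-treated rats 1 to 4. AA-treated rats 2 and 4 thus stood apart from the other 6 rats, with 95% exact binomial intervals of 5.14% to 6.20% and 5.04% to 6.25%, while the highest upper bound of the others was 4.69%. The other 2 AA-treated rats were at the control level, and a difference between the groups was not detected (two-sided exact permutation test of the log2 share, p = 0.371, adjusted p = 0.633). These intervals cover counting error only, and they may be too narrow even for that, since PCR reads are not independent molecules.

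miR-532-3p took 1.63%, 2.12%, 1.43% and 2.99% of the cluster in control rats 1 to 4, and 1.75%, 2.13%, 2.23% and 2.97% in AA-treated rats 1 to 4. The rats numbered 4 were the highest of both groups, with exact binomial intervals of 2.46% to 3.59% and 2.54% to 3.44%. Control rat 3, with the lowest share, had an interval of 1.15% to 1.75%. These are 2 different animals. miR-362 ranged from 3.07% in control rat 4 to 5.26% in AA-treated rat 1, with intervals of 2.53% to 3.68% and 4.67% to 5.90%. miR-188 ranged from 0.867% to 1.36%, and the intervals of these 2 rats, 0.636% to 1.16% and 1.11% to 1.64%, overlapped.

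**Figure D3:**
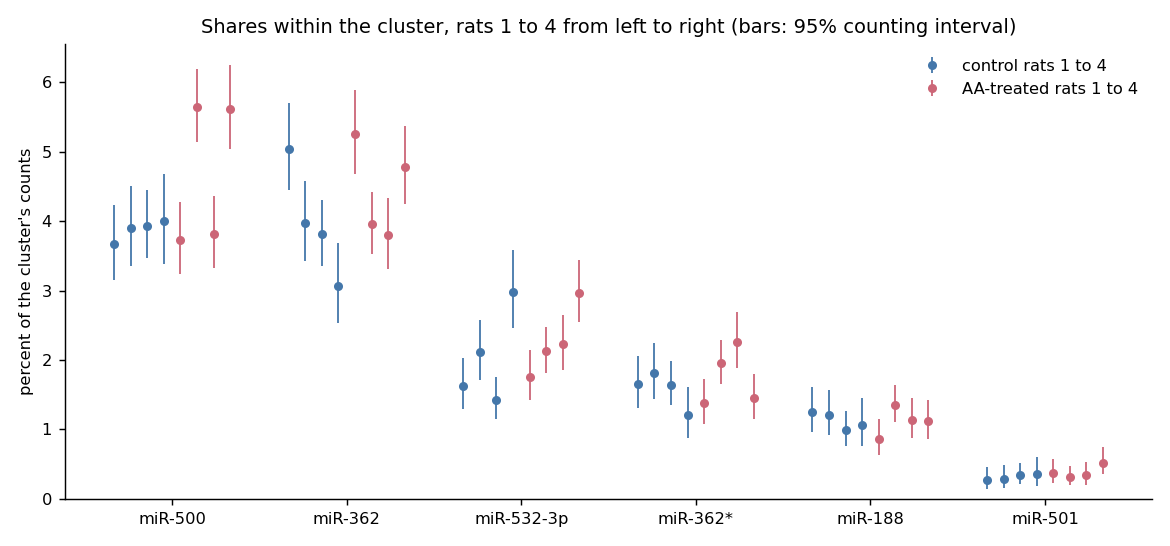
Percent of the cluster's counts (y axis) taken by 6 cluster miRNAs in control (blue) and AA-treated (red) rats, rats 1 to 4 from left to right in each colour, with 95% exact binomial intervals for counting error. miR-500 is at 5.65% and 5.62% in AA-treated rats 2 and 4 and at 3.66% to 4.00% in the other 6 rats, and miR-532-3p is highest in both rats numbered 4.

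The spread between rats can be set against the error expected from counting alone. miR-532-5p had a mean of 4660 counts, which gives a counting error of 1.46%, whereas its SD was 13.5% of the mean in control rats and 11.8% after AA. For miR-500 the counting error was 6.48% against SDs of 13.8% and 21.6%, and for miR-362 it was 6.60% against 24.4% and 19.4%. The counting error was 9.33% for miR-532-3p, with SDs of 23.2% and 11.5%, and 10.4% for miR-362*, with SDs of 24.3% and 27.3%. For miR-188 a counting error of 12.8% stood against SDs of 11.6% and 21.3%, and for miR-501 one of 22.8% against 20.5% and 13.4%. The SDs also hold the differences between animals, and for miR-501 in both groups and miR-188 in the control rats they did not exceed it.

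The 2 arms of a hairpin come from 1 precursor, so that their ratio compares how many of each arm were counted. The ratio of all counts of miR-532-5p to those of miR-532-3p was 40.5, from 37281 and 920 counts. For miR-500 over miR-500* it was 30.7, for miR-501 over miR-501* it was 5.50, and for miR-362 over miR-362* it was 2.49. The miR-362 hairpin was therefore the one whose 2 arms were nearest in count. miR-188 had 492 counts against 6 for miR-188*, a ratio that rests on at most 3 counts per rat.

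The log2 ratio of miR-532-5p to miR-532-3p was 5.71, 5.34, 5.93 and 4.86 in control rats 1 to 4 and 5.62, 5.30, 5.27 and 4.81 in AA-treated rats 1 to 4. Both rats numbered 4 had the lowest ratio of their group. The means were 5.46 ± 0.47 and 5.25 ± 0.33 (SD, n = 4 each), a difference of -0.21 (two-sided exact permutation test, p = 0.429, adjusted p = 0.714 over the 5 hairpins). The log2 ratio of miR-362 to miR-362* was 1.32 ± 0.21 and 1.35 ± 0.56 (SD, n = 4 each), with 1.93 and 1.72 in AA-treated rats 1 and 4 and 1.02 and 0.75 in AA-treated rats 2 and 3 (two-sided exact permutation test, p = 0.914). The control rats lay between 1.13 and 1.603, inside the range of the AA-treated rats. For miR-500 and miR-501 the log2 ratio was higher in the AA-treated rats by 0.73 and 0.61, with an exact permutation p of 0.229 (two-sided, n = 4 per group) and an adjusted p of 0.572 for each. No arm ratio was thus shown to differ between the groups.

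**Figure D4:**
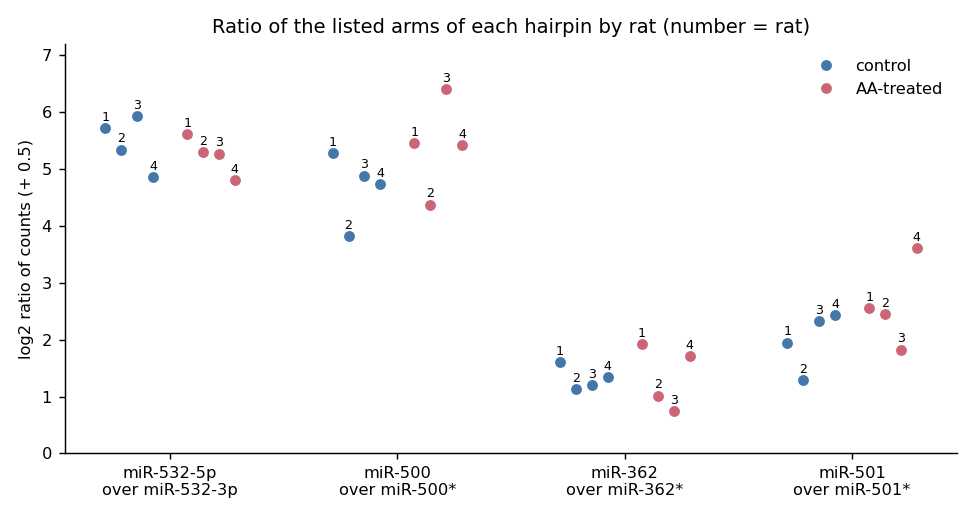
Log2 ratio of the counts of the listed arms (y axis, 0.5 counts added to each) for 4 hairpins in control (blue) and AA-treated (red) rats, numbered by rat. The groups overlap for each hairpin, the miR-362 hairpin has the lowest ratios, between 0.75 and 1.93, and both rats numbered 4 have the lowest miR-532 ratio of their group.

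Outside the cluster, 2 mature miRNAs held by RefSeq share a seed with one of the 9 sequences. They are shown because mature miRNAs with the same seed could act on the same target sites.
miR-511-5p: cAUGCCUUuugcucugcacuc
miR-329-3p: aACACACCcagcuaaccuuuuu

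The seed of miR-511-5p is that of miR-532-5p, and the seed of miR-329-3p is that of miR-362-3p. The table lists these hairpins as miR-511, miR-511*, miR-329 and miR-329*, which again could not be assigned to an arm. Which of the listed names carry the shared seeds is therefore not known. miR-511* rose from 209, 190, 235 and 123 counts in control rats 1 to 4 to 1728, 1952, 1010 and 14014 in AA-treated rats 1 to 4 (adjusted p = 7.60e-04 from edgeR). In 7 of the 8 rats it stayed below the counts of miR-532-5p, and AA-treated rat 4 was the exception, with 4779 counts of miR-532-5p. miR-511 had at most 3 counts in any rat, too few for a fold change. miR-329 had 5 to 21 counts per rat, with a log2 fold change of -0.61 (SE 0.46, edgeR-adjusted p = 0.444), and miR-329* had at most 4 counts.

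Other listed miRNAs of the X chromosome, 76 in all by the RefSeq gene table, had 8 called higher and 0 called lower in the AA-treated rats, with a median log2 fold change of 0.52. Over all 620 miRNAs, 36 were called higher and 20 lower, with a median of 0.05. An unadjusted p under 0.05 in edgeR was found for 23 of the 76, against 23.9% of all 620.

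The kidney is a mixture of cell types, and in such bulk samples fewer cells of a type and less RNA per cell cannot be told apart. Of 18 listed miRNAs of the kidney tubule (miR-192, miR-194, miR-215, miR-204 and the miR-30 family), 2 were called lower (miR-204 and miR-194*) and 0 higher in the AA-treated rats, with a median log2 fold change of -0.57. Their summed level was 3145600 to 4303000 normalized counts in control rats and 2289900 to 3230000 after AA. Of 6 leukocyte miRNAs, 2 were called higher (miR-142-3p and miR-223) and 0 lower, with a median of 1.07 and sums of 13730 to 17814 and 29513 to 56715. None of the endothelial, red cell, fibroblast, smooth muscle or hepatocyte miRNAs, 2, 4, 4, 4 and 2 in number, was called, and their median log2 fold changes were -0.42, -0.63, 0.67, 0.07 and 2.85. With edgeR, an unadjusted p under 0.05 was found for 7 of the 18 tubule, 5 of the 6 leukocyte, 2 of the 4 red cell, 2 of the 4 fibroblast, 1 of the 4 smooth muscle, 0 of the 2 endothelial and 0 of the 2 hepatocyte miRNAs, against 23.9% of all 620. The red cell miRNAs summed to 11079 to 16985 normalized counts in control rats and 3402 to 11440 after AA, and the fibroblast miRNAs to 6549 to 7896 and 7789 to 13670. The smooth muscle miRNAs summed to 2553400 to 3543100 in control rats and 1960300 to 2669600 after AA, and the endothelial miRNAs to 124110 to 164000 and 88876 to 137260. The sums of these 4 lists thus overlapped between the groups in part of their ranges, with the fibroblast sums higher and the other 3 lower after AA at both ends, although the median log2 fold change of the smooth muscle miRNAs was positive. The 2 hepatocyte miRNAs, miR-122 and miR-122*, summed to 64.8 to 759 normalized counts in control rats and 10.1 to 7754 after AA, so that their median rests on widely spread values. The part of these in the levels of the cluster was not tested.

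The mean pattern of the 7 cluster miRNAs over the 8 rats was highest in AA-treated rat 2, at 0.26 above the mean on the log2 scale, and lowest in control rat 4, at -0.30. miR-532-3p did not follow it, with a Pearson correlation of -0.14 with the mean of the other 6 over the 8 rats, whereas the other members had 0.41 to 0.77 on the same measure, given as a description. Among 236 other miRNAs with a mean of at least 100 normalized counts, the 5 whose pattern over the 8 rats was most like it were miR-200c, miR-15b, miR-24-2*, miR-505 and miR-19b. Their Pearson correlations with it were 0.95, 0.93, 0.91, 0.89 and 0.87, given as a description since all values share the size factors and the libraries. None of the 5 was called by edgeR, with adjusted p from 0.0678 to 0.333.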

How the data were processed

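Small RNA of 8 rat kidneys, 4 AA-treated and 4 control, was sequenced in 1 library per rat. The authors masked adaptors, removed contaminated reads and assigned reads to rat miRNAs of miRBase release 16 with miRanalyzer at default parameters, and the labels name CASAVA 1.7. The deposited table gives, for each mature miRNA, the raw count of reads in every rat. The authors' mRNA and protein data were not used here.

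Groups and rat numbers came from the sample titles. Median-of-ratios size factors and the edgeR 4.0.16 quasi-likelihood test (R 4.3.3) were applied to all 620 miRNAs with no filter or covariate, and 95% intervals used the moderated degrees of freedom. Sums, shares and arm ratios (0.5 counts added) were compared with exact permutation tests over 70 labelings. Where the names give no 5p or 3p arm, the arm ratio was taken as the name without over the name with an asterisk. Names of 617 of the 620 miRNAs were matched to RefSeq genes of GRCr8.

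Every cluster miRNA was named, with 5 others chosen by likeness of pattern and those that share a seed. The miRNAs and lists were chosen with earlier results of these data known. The edgeR fit was tested on simulated data. Alternatives were TMM, total counts, DESeq2 1.42.0, limma-voom (limma 3.58.1), robust moderation, low-count filters, other fold thresholds, a replicate block and leaving out rats. Other steps used Python 3.11.15 with scipy 1.17.1, and numpy 2.4.6, pandas 2.3.3 and, for plots, matplotlib 3.10.9.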

Additional observations from a re-analysis of the deposited data

How the results depend on the processing

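The count of 0 called cluster miRNAs held under all 19 alternatives, and the adjusted p of the 9 miRNAs given a fold change was never below 0.162. Direction held in 141 of 149 alternative fits. With total counts, the log2 fold change was 0.32 for miR-532-5p, 0.64 for miR-500, 0.50 for miR-362 and 0.55 for miR-532-3p. It was 0.51 for miR-362*, 0.37 for miR-188 and 0.63 for miR-501. Each of these values lay above the range with 1 rat left out, and none was called. With the same scaling, miR-500* turned to a log2 fold change of 0.19 and miR-501* to 0.038. Leaving out 1 rat at a time, the value of miR-532-5p ranged from 0.0054 to 0.17, of miR-362 from 0.099 to 0.37, of miR-362* from 0.09 to 0.39, of miR-500 from 0.22 to 0.47, of miR-532-3p from 0.18 to 0.42 and of miR-501 from 0.30 to 0.53, all without a call. It ranged from -0.058 to 0.17 for miR-188, from -0.89 to 0.25 for miR-500* and from -0.47 to 0.024 for miR-501*. The summed level differed by 0.04 to 0.19 with 1 rat left out, by 0.15 with TMM, by 0.36 with total counts (exact permutation p = 0.114), by 0.24 as the mean log2 level of the 7 miRNAs (exact permutation p = 0.0571), and by 0.12 without both rats numbered 4, an alternative added after seeing the data. The log2 share of miR-188 ranged from -0.12 to 0.087, and that of miR-532-5p from -0.037 to -0.020, with an unadjusted exact permutation p of 0.0286 without AA-treated rat 1. The arm ratio changed sign in the range of -0.16 to 0.23 for miR-362 and of -0.58 to 0.59 for miR-188, and it was 0.051 for miR-188 with 1 count added. It kept its sign from -0.41 to -0.056 for miR-532, from 0.40 to 1.0801 for miR-500 and from 0.27 to 0.87 for miR-501. With Spearman correlation, 2 of the 5 most alike miRNAs were retained.

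The 2 groups have the same rat numbers. Between rats of the same number, deviations from the group means correlated at -0.01, 0.14, 0.12 and 0.34 for rats 1 to 4 over 370 miRNAs. Control rats 2, 3 and 4 each correlated best with the AA-treated rat of their own number. For control rats 2 and 3 the next highest values were close, at 0.11 and 0.093. Control rat 1 correlated best with AA-treated rat 2, at 0.25. Whether the numbers pair the rats is therefore not established, although the sample descriptions give both rats of a number the same weeks of treatment. With the replicate block, 0 cluster miRNAs were called, with 74 called over all 620 in place of 56, and the summed level differed by 0.10 (exact permutation test, p = 0.375). Of the levels of the 7 miRNAs with a mean of at least 10 counts and the shares, arm ratios and sums of the cluster, those that moved the same way in all 4 number pairs were the level of miR-532-3p, the summed level of the miR-362 hairpin and the mean log2 level of the 7 miRNAs (higher after AA), and the arm ratios of miR-532 (lower) and miR-500 (higher). For both arm ratios the exact permutation p with the block was 0.125, the smallest that 4 pairs allow. In that test, any measure that moves the same way in all 4 pairs reaches this value. The level of miR-532-3p had an adjusted p of 0.375 with the block in edgeR. Filters on low counts removed miR-500*, miR-501* and miR-188*. Depth limits these 3 miRNAs and also miR-501 and, in the control rats, miR-188, whose spread did not exceed the counting error.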
